A study of Rattus norvegicus with 12 samples.

Results

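The nuclear genes for the subunits of mitochondrial oxidative phosphorylation were followed in the rat colon carcinoma line CC531 during treatment with butyrate or aspirin. They were taken as every probe set whose only gene symbol began with Nduf, Sdha to Sdhd, Uqcr, Cox4 to Cox8 or Atp5, or was Cycs or Cyc1. This gave 102 of 8740 probe sets and 56 of 4736 genes. Of these, 94 probe sets, at least 1 for each of the 56 genes, were bright enough to be tested. The symbol rule also takes in the assembly factors Ndufaf3 and Sdhaf2, the pseudogene Cox6c-ps1 and the inhibitor Atp5if1. A further 7 probe sets that named a subunit together with a gene copy or pseudogene (Atp5mc1, Atp5mc2, Cox7a2, Ndufb4, Ndufs5, Cox5a and Cycs) were not members, so cytochrome c itself is not described.

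Cells were treated with 4.5 mM butyrate for 2, 6, 12, 16 and 24 h (n = 5 arrays), treated with 3 mM aspirin for the same hours (n = 5), or left untreated for 2 and 24 h (n = 2). Each treatment and hour had 1 array of total RNA. Separate cultures are not stated in the labels, so the p-values reflect array-to-array spread that may be technical. The 5 hours of a drug stood as its replicates, so against untreated cells that spread also includes changes over the hours. Between the drugs, hour was a block, which removes only what both drugs share at an hour. Changes over the hours that differ between the drugs remain in the spread. Butyrate, a product of bacterial fermentation in the gut, inhibits histone deacetylases and is also a fuel that colon cells oxidise in their mitochondria, while aspirin inhibits the cyclooxygenases.

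Oxidative phosphorylation passes electrons from NADH through complex I, or from succinate through complex II, to ubiquinone, then through complex III and cytochrome c to complex IV, where oxygen is reduced. Complexes I, III and IV pump protons, and complex V, the ATP synthase, uses the proton gradient to make ATP. A few core subunits of complexes I, III, IV and V are encoded in mitochondrial DNA and the others in the nucleus. Both sets of genes have to be expressed for each of these complexes to form. The subunits of complex II are all encoded in the nucleus. None of the listed mitochondrially encoded subunits was found by name on the array (0 probe sets).

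Markers of intestinal epithelium were present, with 10 of 14 probe sets above the floor of 90.91 intensity units on all 12 arrays. These were the probe sets of Epcam, Krt8, Krt18, Krt19, Cldn3 and Lgals4, and 1 of 3 of Muc2. The other 2 of Muc2 were at the floor on all 12 arrays, Fabp2 on 9 and Krt20 on 6. The sum over this epithelial list was 80008 to 95886 with butyrate, 89591 to 100824 with aspirin and 91280 to 106621 in untreated cells. Of the striated muscle markers 1 of 18 probe sets stayed above the floor, and of the endothelial and hepatocyte markers 0 of 4 and 0 of 11. Fibroblast markers did so at 7 of 21 probe sets, and blood and immune markers at 2 of 9, both Cd14. Cd8a and 2 of 3 probe sets of Ptprc were at the floor on all 12 arrays, and Cd79b on 7. The sum of the blood list was 1937 to 3301 with butyrate, 3689 to 10469 with aspirin and 4250 to 6226 in untreated cells. Its 2 Cd14 probe sets reached 5369 and 4475, and no other probe set of that list exceeded 466. The sum of the fibroblast list was 10730 to 14624 with butyrate, 12785 to 16155 with aspirin and 16472.5 to 17925 in untreated cells. The part of these sums in the results was not tested. In RNA from a whole culture, fewer transcripts per cell and a changed mixture of cells cannot be told apart.

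Between the drugs, subunit transcripts were lower with butyrate than with aspirin. At an adjusted p under 0.05 in limma's moderated test, 32 of the 94 probe sets, for 21 genes, were lower with butyrate, which is 34% of them against 9.61% of all 6118 probe sets tested. Only 3 were higher, 3.19% against 15.6% of all, and these were Cox4i2 and both probe sets of Ndufv3. The median log2 difference was -0.25 over the members and 0.10 over all probe sets tested, and 75 of 94 members had a negative difference. The ranges of the arrays did not overlap, with butyrate lower, for 22 members (23.4%, against 5.3% of all), and with butyrate higher for 3 (3.19%, against 10.3%). At each of the 5 hours the butyrate array was the lower one for 45 members (47.9%, against 13% of all) and the higher one for 3 (3.19%, against 19.9%).

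By complex, the test called 19 of 44 probe sets of complex I lower (43.2%, 13 genes), 4 of 7 of complex III (57.1%), 7 of 24 of complex IV (29.2%) and 2 of 17 of complex V (11.8%), both for the stalk subunit Atp5po. The share in complex V is near the 9.61% of all probe sets. Of the members, however, 69 lie in the brightest of 5 equal groups by mean level. In that group 28.1% of all probe sets were called lower. The share in complex IV is near that figure and the share in complex V is below it. The complexes were not split by level. Neither of the 2 probe sets placed in complex II was called. Median log2 differences were -0.28 for complex I, -0.14 for complex II, -0.36 for complex III, -0.23 for complex IV and -0.14 for complex V. For 12 genes every tested probe set was called lower. Among the 25 genes with 2 or more tested probe sets, all were called lower for 4, and some but not all for 9. Probe sets of a gene read the same transcript and are not independent.

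**Figure D1:**
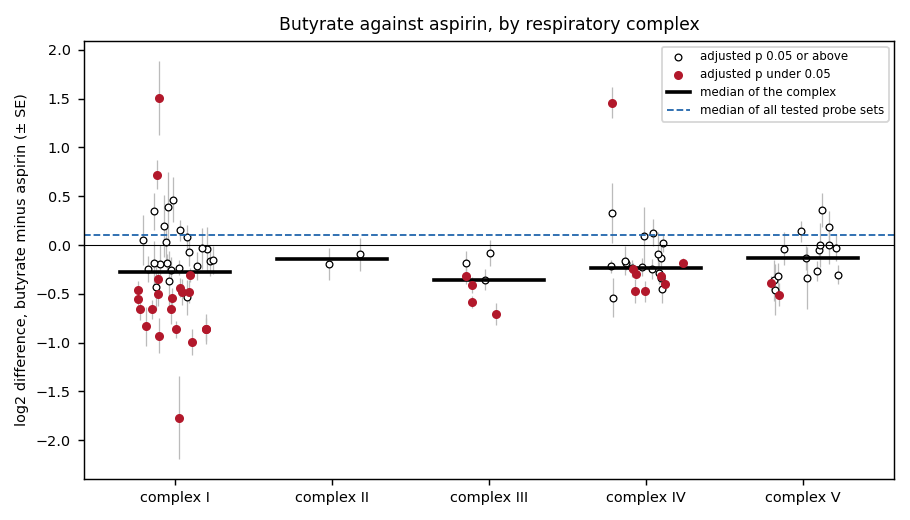
The log2 difference between butyrate and aspirin (vertical axis, mean ± SE over the 5 hours, time as a block) is plotted for the 94 tested probe sets by complex, with filled points for an adjusted p under 0.05. The complex medians, from -0.36 for complex III to -0.14 for complexes II and V, all lie under the dashed median of all tested probe sets at 0.10, and the highest filled points are Ndufv3 in complex I and Cox4i2 in complex IV.

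The difference was also taken hour by hour and by level. Against the aspirin array of the same hour, the median member was -0.44, -0.32, -0.23, -0.16 and -0.22 log2 units with butyrate at 2, 6, 12, 16 and 24 h, while the median of all probe sets lay between 0 and 0.11. Leaving out both arrays of the 2, 6, 12, 16 or 24 h point left 23, 8, 7, 3 and 12 members called lower. The share of all probe sets called lower was then 10.4, 2.48, 1.78, 0.915 and 3.04%. The members are mostly bright, with 69 of 94 in the brightest of 5 equal groups of the tested probe sets (a mean level of 2088 or more). In that group, 28.1% of all probe sets were called lower with butyrate, at a median log2 difference of -0.18, against 29 of the 69 members (42%) at a median of -0.29. The 99th percentile of intensity was 18859 to 21069 on butyrate arrays, 21450 to 27213 on aspirin arrays and 22960 to 23964 on untreated arrays. Quantile normalization makes the arrays' distributions equal. After it, 15 of the 69 members of that group were called lower with a median of -0.23, against 15.2% of all at a median of -0.04. Over all levels, quantile normalization left 20 of 95 members called lower (21.1%, against 9.69% of all). The probe sets of Atp5po, Cox4i1, Cox5b, Cox6a1, Cox8a, Ndufa4 and Ndufv2 called as deposited all lost their call, as did 1 each of Ndufab1, Ndufc1 and Ndufv3 and 2 of 3 of Uqcrfs1.

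**Figure D2:**
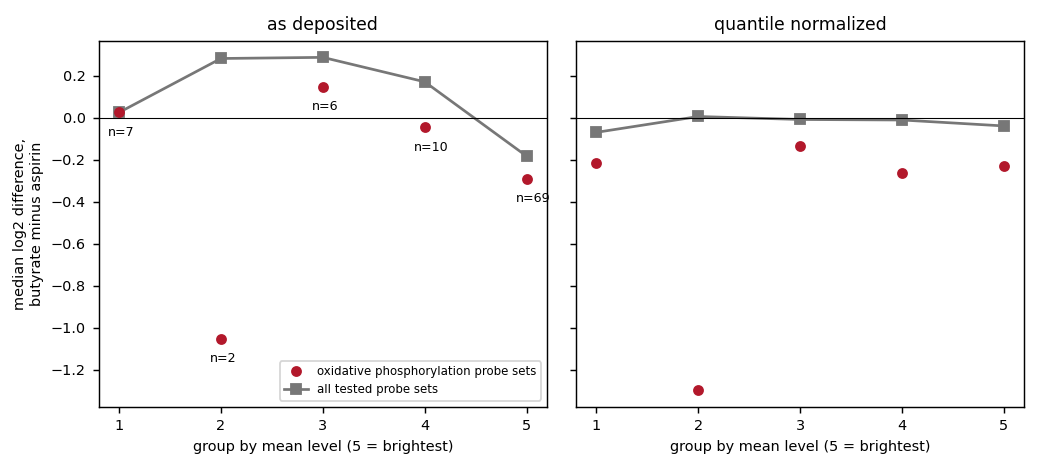
Median log2 difference between butyrate and aspirin (vertical axis) in 5 equal groups of the tested probe sets by mean level (horizontal axis), for the members (circles, with their number) and for all tested probe sets (squares), as deposited on the left and after quantile normalization on the right. In the brightest group, which holds 69 members, the members' median was -0.29 against -0.18 as deposited and -0.23 against -0.04 after quantile normalization, and the other groups hold 2 to 10 members each.

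Several subunits of the arm of complex I that takes electrons from NADH to ubiquinone were lower with butyrate. Ndufa9, an accessory subunit of that arm beside the ubiquinone site, read 3442, 2718, 1819, 1377 and 1398 at 2, 6, 12, 16 and 24 h of butyrate, against 5833, 4211, 4233, 3461 and 2867 at the same hours of aspirin and 3789.8 and 2797 in untreated cells at 2 and 24 h. It was the lower array with butyrate at each hour although the 2 ranges overlap, and it was 1.99-fold lower (log2 difference -0.996 ± 0.13, adjusted p = 0.00795). Ndufs7, which holds the last iron-sulphur cluster before ubiquinone, read 2575, 1819, 1697, 1358 and 1082 with butyrate, against 3457, 2920.2, 3032, 2681 and 2836 with aspirin and 2586 and 3315 in untreated cells, in the same order of hours. All of its butyrate arrays lay below all of its aspirin arrays (log2 difference -0.86 ± 0.15, adjusted p = 0.0152). Ndufa5, another accessory subunit of this arm, read 4922, 5003, 4672, 4556 and 3973 with butyrate, against 8173, 8843, 8086, 7999 and 8923 with aspirin and 5334 and 6507 in untreated cells. Its butyrate arrays lay below every aspirin and untreated array, and it was 1.82-fold lower than with aspirin (log2 difference -0.86 ± 0.09, adjusted p = 0.0056).

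Ndufs8, the neighbour of Ndufs7 with a pair of iron-sulphur clusters, had 4 probe sets, of which 3 were called lower. The brightest of them read 3271, 3396, 2564, 3162 and 2655 with butyrate, against 6146, 4236, 3947, 3599 and 3715 with aspirin and 3470.1 and 4320.2 in untreated cells, with no overlap between the drugs (log2 difference -0.50 ± 0.12, adjusted p = 0.0326). Another read 1429.5, 1046, 964, 407 and 969.7 with butyrate, against 2179.6, 1756, 1447, 1299 and 1422 with aspirin and 1363 and 1696 in untreated cells (log2 difference -0.83 ± 0.20, adjusted p = 0.0315). The largest difference of any member, -1.77 ± 0.42 (adjusted p = 0.0309), came from a dim probe set of this gene that read 514, 1.6, 116, 112 and 42.1 with butyrate, against 747, 766, 418, 199 and 538 with aspirin and 28.3 and 462 in untreated cells. Of its butyrate arrays 2 were at the floor, so its size depends on the floor. The fourth probe set was below 0 on most arrays and was not called.

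Among the subunits at the NADH end, Ndufs6, an accessory subunit that binds zinc, read 7409, 7235, 6492, 5474 and 4735 with butyrate, against 11498, 9751, 9411, 8973 and 9405 with aspirin and 7494 and 9643 in untreated cells. Its butyrate arrays lay below all aspirin arrays (log2 difference -0.66 ± 0.10, adjusted p = 0.00962). Ndufs4, an accessory subunit whose loss gives a complex I deficiency in mice and humans, was lower on both tested probe sets, the brighter of which read 4550.5, 5076, 5641, 6019.7 and 5259 with butyrate, against 7187, 5628, 7362, 7891 and 7950.0 with aspirin and 4078 and 4950.1 in untreated cells (log2 difference -0.44 ± 0.09, adjusted p = 0.0248). Here the untreated arrays lay with the butyrate arrays or below them. Ndufv2, a core subunit with an iron-sulphur cluster, ranged over 2639.8 to 3619 with butyrate, 3759.5 to 5977 with aspirin and 2550.2 to 3687 in untreated cells (log2 difference -0.48 ± 0.13, adjusted p = 0.0458). Ndufs1, the largest core subunit, was not called, at 334 to 522 with butyrate, 158 to 539.7 with aspirin and 489 to 538 in untreated cells (log2 difference 0.39 ± 0.36, adjusted p = 0.453).

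In the membrane arm, the proton-pumping part of complex I, Ndufa3 read 5583, 5122, 4326, 3413 and 3149 with butyrate, against 8049.6, 8484, 7865, 6431 and 7634 with aspirin and 5589 and 4761 in untreated cells. The drugs did not overlap, and butyrate was lower by 1.82-fold (log2 difference -0.86 ± 0.12, adjusted p = 0.00851). Ndufb5 read 1443, 1340.1, 1051, 898 and 689 with butyrate, against 2023, 2139.7, 1856, 1939 and 2023 with aspirin and 1314 and 1968 in untreated cells on 1 probe set (log2 difference -0.93 ± 0.18, adjusted p = 0.0185), and its brighter probe set, at 2783 to 4949 with butyrate, 4455 to 6953 with aspirin and 3819 to 5573 in untreated cells, missed the threshold (adjusted p = 0.074). Ndufc1 was lower on both probe sets, with 2391, 2473, 1932, 1971 and 1721 with butyrate, against 3513, 3196, 3160.4, 3027 and 3483 with aspirin and 2406 and 2979 in untreated cells for the one whose ranges did not overlap (log2 difference -0.65 ± 0.12, adjusted p = 0.0149). Ndufb8 was called on its 2 bright probe sets, the brighter at 9481 to 11438 with butyrate, 12922 to 18028 with aspirin and 13508 to 15849.7 in untreated cells (log2 difference -0.46 ± 0.09, adjusted p = 0.0203), and not on 2 dim ones. Ndufab1, the mitochondrial acyl carrier protein, ranged over 7474 to 12830.1 with butyrate, 14099 to 16617 with aspirin and 12991 to 14478 in untreated cells on its brightest probe set (log2 difference -0.56 ± 0.12, adjusted p = 0.0233). It was called on 2 of 3 probe sets, and the other had a log2 difference of 0.03. Ndufa4, named for complex I and since assigned to complex IV, ranged over 10107 to 12285 with butyrate, 13380.3 to 15844 with aspirin and 12557 to 13852 in untreated cells (log2 difference -0.30 ± 0.07, adjusted p = 0.0306). Other membrane-arm genes were not called, among them Ndufb2, Ndufb3, Ndufb6, Ndufb9, Ndufb10 and Ndufc2. Ndufb11 had the highest positive difference among these, at 3196 to 4765 with butyrate, 1946 to 4300.1 with aspirin and 2361 to 2569.8 in untreated cells (log2 difference 0.47 ± 0.23, adjusted p = 0.193).

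Ndufv3, an accessory subunit at the NADH end, went the other way and was the one member called above untreated cells. Its brighter probe set read 2367, 2634, 3058, 3386 and 2865 with butyrate, against 2038, 1543, 1587, 1573 and 1931 with aspirin and 556 and 858 in untreated cells. Every butyrate array lay above every aspirin array, and every aspirin array above both untreated arrays. The log2 difference was 2.04 ± 0.22 for butyrate against untreated cells (4.11-fold, adjusted p = 0.000305), 1.32 ± 0.22 for aspirin against untreated cells (2.49-fold, adjusted p = 0.036) and 0.72 ± 0.15 for butyrate against aspirin (adjusted p = 0.022). The aspirin call was lost in 17 of 21 alternatives. The dimmer probe set read 449, 529, 465, 754 and 499 with butyrate, against 260.2, 165, 183, 87 and 308 with aspirin and 58.6 and 223 in untreated cells (log2 difference 1.51 ± 0.38, adjusted p = 0.0349 for butyrate against aspirin), with the untreated 2 h and aspirin 16 h arrays at the floor.

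**Figure D3:**
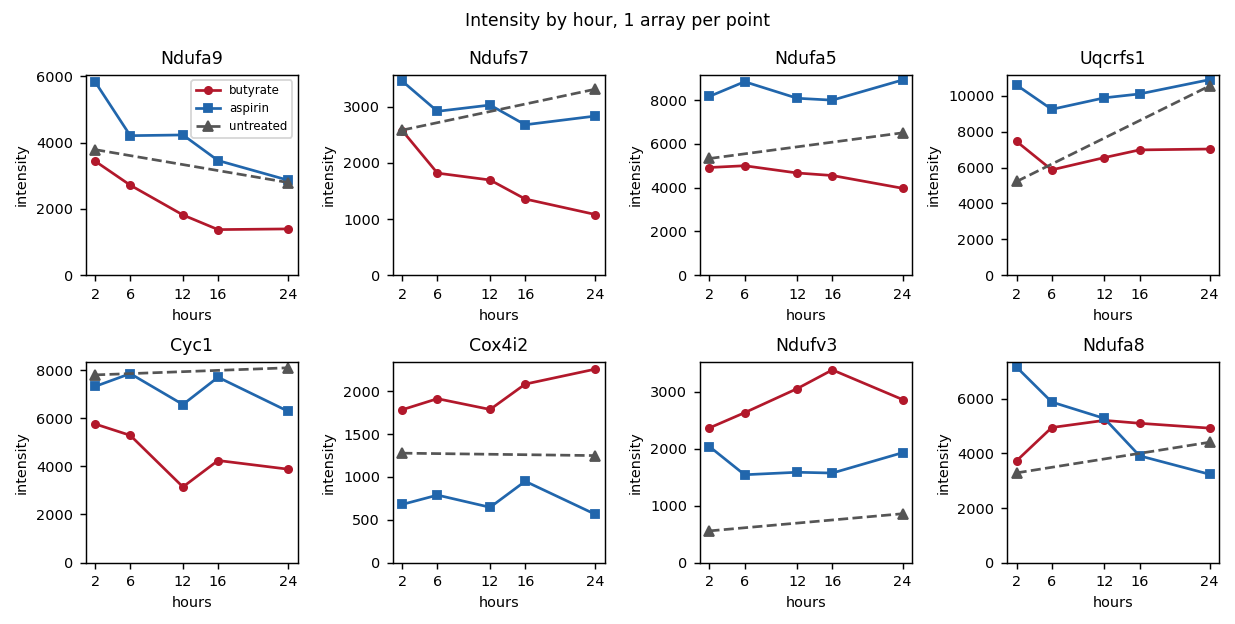
Deposited intensity (vertical axis, linear from 0) against hours (horizontal axis) for 8 members, with 1 array per point: butyrate as circles, aspirin as squares and untreated cells as triangles. Ndufa9, Ndufs7, Ndufa5, Uqcrfs1 and Cyc1 lie lower with butyrate than with aspirin at every hour, Cox4i2 and Ndufv3 lie higher, and the 2 lines of Ndufa8 cross between 12 and 16 h.

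Promoter sequences are shown for 3 of the 5 complex I genes called lower with butyrate and also called as falling over its hours, and for Ndufv3, which was higher. The 3 were picked after the matches were seen. Each runs 5′ to 3′ from 220 bases before the annotated start to 30 bases from it, in the RefSeq GRCr8 rat assembly, which 47 of the 56 genes matched. Capitals mark AAGATGG (a YY1-type motif), TGCGCA (a short NRF1-type motif) and GGGCGG (an SP1-type motif), the last also as CCGCCC on the other strand.
Ndufa9 (chr4:161374141-161374390, minus strand): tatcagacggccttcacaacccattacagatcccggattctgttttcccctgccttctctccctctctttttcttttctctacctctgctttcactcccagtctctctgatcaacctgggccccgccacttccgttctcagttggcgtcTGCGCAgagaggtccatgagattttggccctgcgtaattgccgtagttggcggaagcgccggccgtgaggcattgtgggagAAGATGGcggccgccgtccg
Ndufs7 (chr7:10110469-10110718, minus strand): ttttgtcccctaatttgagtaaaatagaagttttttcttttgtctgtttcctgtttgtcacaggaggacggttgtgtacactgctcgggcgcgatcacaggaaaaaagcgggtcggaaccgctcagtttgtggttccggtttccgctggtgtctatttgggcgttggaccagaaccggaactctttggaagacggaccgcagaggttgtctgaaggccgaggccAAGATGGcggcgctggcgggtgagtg
Ndufa3 (chr1:74515529-74515778, minus strand): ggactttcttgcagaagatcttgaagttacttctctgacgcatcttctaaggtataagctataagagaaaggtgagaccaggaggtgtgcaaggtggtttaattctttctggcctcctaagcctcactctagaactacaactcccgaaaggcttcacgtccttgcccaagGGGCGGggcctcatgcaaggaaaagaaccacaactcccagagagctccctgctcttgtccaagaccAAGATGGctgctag
Ndufv3 (chr20:9613566-9613815, plus strand): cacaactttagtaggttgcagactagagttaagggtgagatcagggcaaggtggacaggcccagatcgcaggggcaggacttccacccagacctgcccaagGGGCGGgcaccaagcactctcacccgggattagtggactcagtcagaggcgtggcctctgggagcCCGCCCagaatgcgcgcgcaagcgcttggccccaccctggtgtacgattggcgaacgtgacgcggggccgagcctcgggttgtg

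AAGATGG, whose letters hold an ATG, starts 11 bases into the Ndufa9 transcript, 5 bases into that of Ndufs7 and 17 bases into that of Ndufa3, counting the annotated start as base 1, and is not in the Ndufv3 window. Nor is it in the windows of Ndufa5 and Uqcrfs1, not printed here, which were called lower with butyrate than with aspirin. TGCGCA starts 71 bases before the Ndufa9 start. GGGCGG starts 50 bases before the Ndufa3 start and 119 before that of Ndufv3, which also has CCGCCC 54 bases before it. In windows of 250 bases before to 50 after the start, read on both strands, AAGATGG was in 13 of the 47 member promoters (27.7%), against 7.01% of 33469 promoters of all genes. TGCGCA was in 23.4% of member promoters against 7.24% of all, and CCGGAAG, an ETS-type motif, in 21.3% against 8.75%. GCATGCG, a longer NRF1-type motif, was in 8.51% against 3.33%, and AAGGTCA, an ERR-type motif, in 10.6% against 4.61%. GGGCGG was in 44.7% against 33.1%, and TGACGTC, a CRE-type motif, in 4.26% against 3.22%. The promoters of members fall into 19 of genes called lower with butyrate than with aspirin and 28 of the others. AAGATGG was in 8 of the 19 and 5 of the 28, TGCGCA in 6 and 5, CCGGAAG in 4 and 6, GCATGCG in 2 and 2, AAGGTCA in 2 and 3, GGGCGG in 7 and 14 and TGACGTC in 1 and 1. These are matches of letters, not sites shown to be bound.

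Complex II oxidises succinate. Its catalytic flavoprotein Sdha read 3349.7, 2788, 2053, 2591 and 2394 with butyrate, against 3679, 2966, 3413, 3391 and 1838 with aspirin and 3215 and 2331 in untreated cells, with overlap between all groups (log2 difference -0.19 ± 0.17, adjusted p = 0.428). The assembly factor Sdhaf2, which helps attach the flavin, ranged over 2936 to 4166 with butyrate, 3187 to 5088 with aspirin and 3744 to 4371 in untreated cells (log2 difference -0.10 ± 0.17, adjusted p = 0.69). No probe set named Sdhb, Sdhc or Sdhd alone.

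In complex III the 2 subunits that carry electrons to cytochrome c were lower with butyrate than with aspirin. Uqcrfs1, the Rieske iron-sulphur protein, was called on all 3 of its probe sets. The first read 7453, 5872, 6556, 6983 and 7034 with butyrate, against 10593, 9245, 9887, 10103 and 10900.3 with aspirin and 5225 and 10555 in untreated cells (log2 difference -0.58 ± 0.06, adjusted p = 0.0056). Its butyrate arrays lay below its aspirin arrays, while its untreated arrays lay below the butyrate arrays at 2 h and among the aspirin arrays at 24 h. The second ranged over 6766 to 8548 with butyrate, 7635 to 11818 with aspirin and 6489.9 to 10932 in untreated cells (log2 difference -0.41 ± 0.09, adjusted p = 0.0235), and the third over 4987 to 6034 with butyrate, 6764 to 7186 with aspirin and 6282 to 7375 in untreated cells (log2 difference -0.32 ± 0.08, adjusted p = 0.0352). Cyc1, the haem protein cytochrome c1, read 5766, 5293, 3147, 4247 and 3885 with butyrate, against 7331, 7863, 6577, 7713 and 6292 with aspirin and 7809.9 and 8106 in untreated cells. All butyrate arrays lay below all aspirin and untreated arrays. The log2 difference was -0.71 ± 0.12 against aspirin (adjusted p = 0.013) and -0.87 ± 0.21 against untreated cells (1.82-fold lower, adjusted p = 0.0185), and the call against untreated cells was lost without either untreated array. Uqcrc2, a core protein, ranged over 5114 to 7674 with butyrate, 7606 to 9325 with aspirin and 7561 to 9549.5 in untreated cells (log2 difference -0.36 ± 0.11, adjusted p = 0.0611). Uqcr11, a small subunit, was called on neither of its probe sets, the brighter of which ranged over 8809.9 to 11063 with butyrate, 9011 to 12876 with aspirin and 7029 to 12100.5 in untreated cells (log2 difference -0.19 ± 0.12, adjusted p = 0.307).

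Complex IV members were among the brightest probe sets, and most of their differences were small. Cox8a, a small membrane subunit, had 4 probe sets, of which 3 were called lower with butyrate than with aspirin. The brightest read 24361, 22694, 20606, 23419 and 22971 with butyrate, against 32680.4, 29329.6, 23438, 26198 and 31014 with aspirin and 22816 and 26348 in untreated cells (log2 difference -0.31 ± 0.07, adjusted p = 0.022). The drugs overlapped there, and after quantile normalization the adjusted p was 0.312. The drugs did not overlap on another called probe set, at 9424 to 10304 with butyrate, 10908 to 15607 with aspirin and 8898 to 12489.9 in untreated cells (log2 difference -0.40 ± 0.08, adjusted p = 0.0179). Cox7a2l, which helps join complexes III and IV into supercomplexes, read 4186, 4397, 4204, 5700.4 and 6445 with butyrate, against 7095, 5921, 6854, 6489.7 and 7891 with aspirin and 4969 and 5356 in untreated cells on its called probe set (log2 difference -0.47 ± 0.11, adjusted p = 0.0282). Cox5b, a subunit that binds zinc, read 9367, 9238, 9690.4, 8599.7 and 6654 with butyrate, against 13102, 13281, 9944, 11326 and 12591 with aspirin and 7108 and 12065 in untreated cells on its called probe set (log2 difference -0.47 ± 0.13, adjusted p = 0.0412), with all butyrate arrays below the aspirin arrays. Cox4i1, the common form of the regulatory subunit 4, ranged over 15194 to 17525 with butyrate, 17937 to 21505 with aspirin and 15410.0 to 19699.8 in untreated cells on its called probe set (log2 difference -0.25 ± 0.06, adjusted p = 0.0343), and under quantile normalization that difference was -0.04 (adjusted p = 0.558). Cox6a1, another regulatory subunit, ranged over 19169.6 to 23244 with butyrate, 22418 to 26486 with aspirin and 21255 to 24616 in untreated cells on its called probe set (log2 difference -0.18 ± 0.05, adjusted p = 0.0437), and under quantile normalization that difference turned to 0.04 (adjusted p = 0.587). For Cox4i1 and Cox6a1 only 1 of 3 tested probe sets was called, and for Cox5b and Cox7a2l 1 of 2. Cox5a, Cox6b1, Cox6c and Cox7b were not called. Cox6b1 ranged over 11306 to 16126 with butyrate, 11731 to 14353 with aspirin and 12306 to 13689 in untreated cells on its brighter probe set (log2 difference 0.02 ± 0.09, adjusted p = 0.877).

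Among the isoforms known from particular tissues, Cox4i2, the form of subunit 4 known from lung and from cells at low oxygen, was called higher with butyrate than with aspirin, as was Ndufv3 among the members. Its single probe set, named by the array annotation alone, read 1786, 1915, 1789, 2086 and 2261 with butyrate, against 679, 788, 646, 949.9 and 563 with aspirin and 1278 and 1250.1 in untreated cells. All butyrate arrays lay above both untreated arrays, and all aspirin arrays below them. Butyrate exceeded aspirin 2.75-fold (log2 difference 1.46 ± 0.16, adjusted p = 0.00567). The differences from untreated cells missed the threshold, at 0.63 ± 0.23 for butyrate (adjusted p = 0.0906) and -0.83 ± 0.23 for aspirin (adjusted p = 0.264). Its correlation with the mean of the other members over the 12 arrays was -0.78, the lowest of the members. The heart and muscle form Cox6a2 was at the floor on every array on 2 of 3 probe sets, and ranged over 608 to 901 with butyrate, 318 to 893 with aspirin and 399 to 916 in untreated cells on the other. Cox8b, also a muscle form, was at the floor on all arrays on 1 probe set and ranged over 4.1 to 73.3 with butyrate, -13.8 to 142 with aspirin and 105 to 258 in untreated cells on the other.

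In complex V 1 of 10 genes was called between the drugs. Atp5po, the stalk subunit that ties the catalytic head to the stator, was lower with butyrate than with aspirin on both probe sets. The first read 7276, 6765, 7264, 6596 and 6084 with butyrate, against 9918, 12589.7, 8301, 8358 and 9686 with aspirin and 7969 and 10368 in untreated cells (log2 difference -0.51 ± 0.12, adjusted p = 0.0269), and the second ranged over 8262 to 9833 with butyrate, 10668 to 13653 with aspirin and 10558 to 13467 in untreated cells (log2 difference -0.39 ± 0.07, adjusted p = 0.0149). In both, every butyrate array lay below every aspirin and untreated array. The catalytic subunit Atp5f1b read 20285, 17355, 18006, 16149 and 13087 with butyrate, against 19347, 18048, 16887, 16775 and 15952 with aspirin and 19227 and 16725 in untreated cells, with the drugs overlapping (log2 difference -0.05 ± 0.07, adjusted p = 0.654). Its partner Atp5f1a ranged over 10381 to 12698 with butyrate, 7526 to 11781 with aspirin and 12356 to 13302 in untreated cells (log2 difference 0.14 ± 0.11, adjusted p = 0.372). Atp5f1d, a subunit of the central stalk, ranged over 6635 to 9122 with butyrate, 5524 to 9298 with aspirin and 6759 to 9519 in untreated cells on its brighter probe set (log2 difference 0.18 ± 0.17, adjusted p = 0.463). The inhibitor Atp5if1, which blocks ATP breakdown by the enzyme, was called on none of its 4 probe sets. The stator subunit Atp5pb was not called, at 7169, 8487, 5801, 5200.3 and 9687 with butyrate, against 10698, 6451, 10885, 12779 and 9081 with aspirin and 9946 and 12479.8 in untreated cells (log2 difference -0.46 ± 0.26, adjusted p = 0.241).

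**Figure D4:**
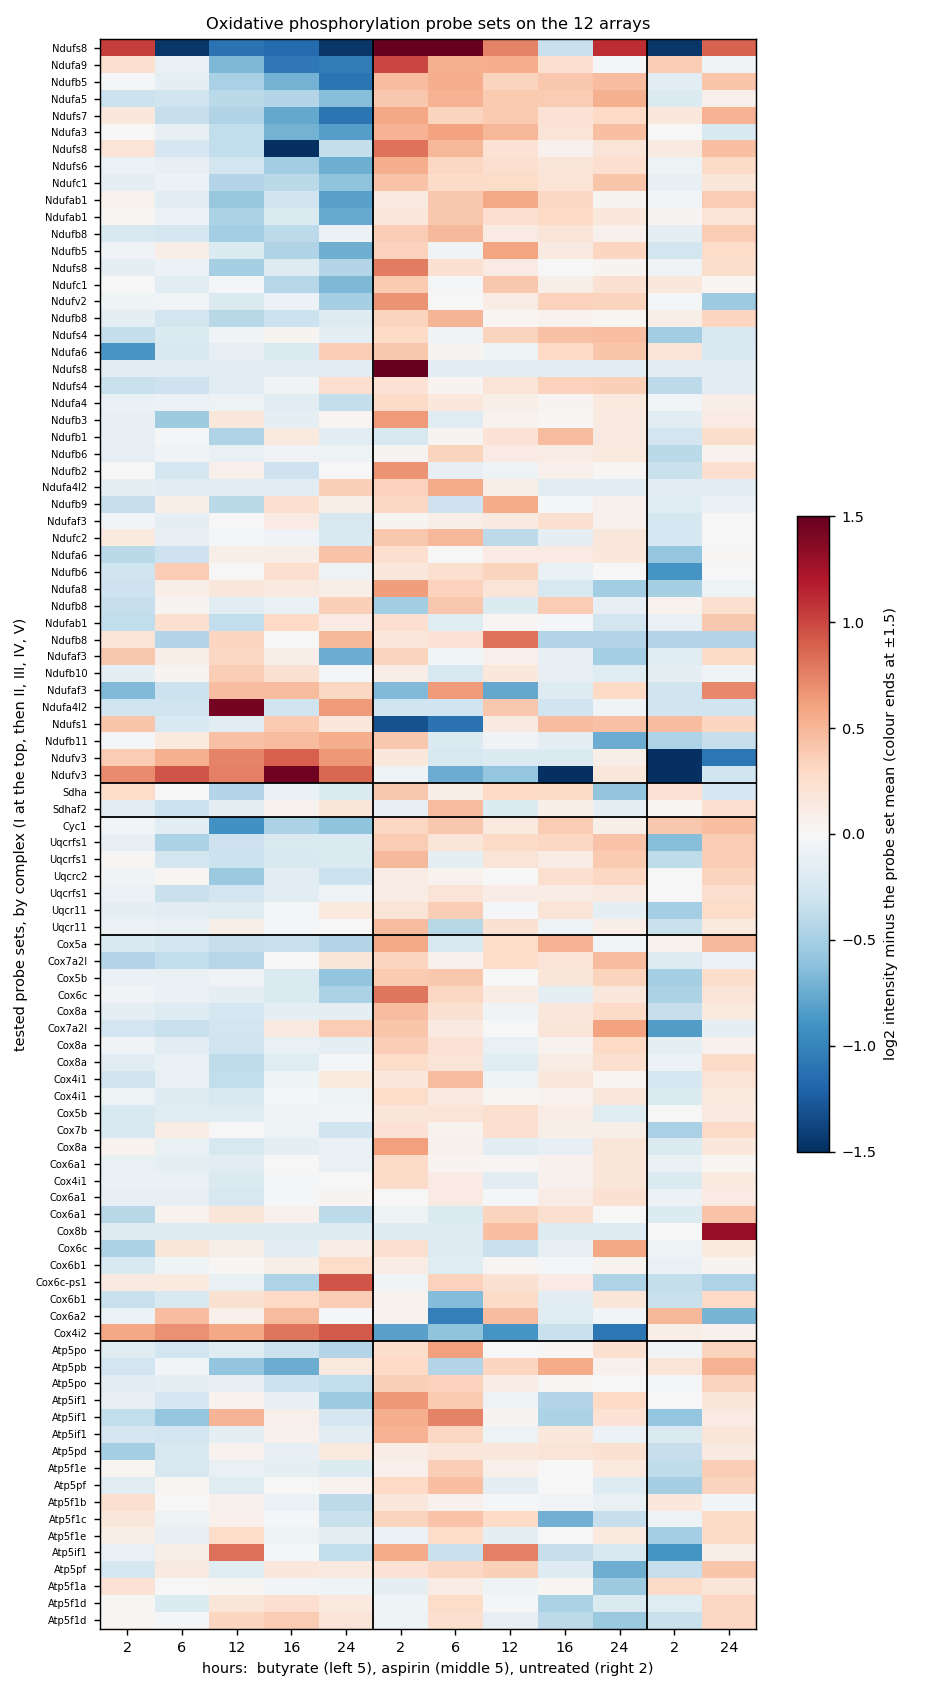
Each row is 1 of the 94 tested probe sets, named by its gene and grouped by complex, and each column 1 of the 12 arrays; colour is the log2 intensity minus the row's mean, with the scale ending at ±1.5. Within each complex the rows run from the lowest to the highest difference between butyrate and aspirin, with 75 of 94 rows negative, and the untreated 2 h column is lower than the untreated 24 h column in 78 rows.

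Against untreated cells few members were called. Butyrate gave 2 probe sets higher (2.13%, against 7.78% of all), both of Ndufv3, and 1 lower (1.06%, against 3.92%), that of Cyc1. Aspirin gave 1 higher (1.06%, against 0.0817% of all), that of Ndufv3, and 0 lower (against 0.0654%), with 12 members at an unadjusted p under 0.05 in limma's test. The median member was -0.10 log2 units for butyrate and 0.15 for aspirin, both against the same untreated arrays, and the median of all probe sets was 0.00 and -0.04.

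The 2 untreated arrays differed from each other over the members. At 24 h, 78 of 94 members were higher than at 2 h, with a median of 0.35 log2 units, against a median of 0 over all probe sets. At 2 h the median member was 0.03 with butyrate and 0.49 with aspirin relative to the untreated array of that hour, and 84 members were higher with aspirin. At 24 h it was -0.26 with butyrate, with 69 members lower, and -0.03 with aspirin. Without the untreated 2 h array the members' median was -0.27 for butyrate and -0.03 for aspirin. Without the untreated 24 h array it was 0.09 for butyrate and 0.31 for aspirin. The direction of the members' medians against untreated cells thus depended on which untreated array was used.

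Over the hours of butyrate 5 members were called as falling (5.32%, against 4.2% of all), all in complex I, and 2 as rising (2.13%, against 4.79%). Both shares lie near or below those of all probe sets. Ndufa9 fell by 0.40 ± 0.06 log2 units per doubling of time, adjusted p = 0.00731, Ndufs7 by 0.32 ± 0.05 log2 units per doubling of time, adjusted p = 0.00877, and Ndufb5 by 0.28 ± 0.06 log2 units per doubling of time, adjusted p = 0.0264. Ndufa3 fell by 0.24 ± 0.05 log2 units per doubling of time, adjusted p = 0.0331, and Ndufs6 by 0.17 ± 0.04 log2 units per doubling of time, adjusted p = 0.0489. None of these 5 slopes was called different from the slope with aspirin. Ndufa9 and Ndufa3 also read lower at 24 h than at 2 h with aspirin and in untreated cells. Ndufs7, Ndufb5 and Ndufs6 read higher at 24 h than at 2 h in untreated cells. By 24 h of butyrate, Ndufs7 stood at 1082, against 2836 with aspirin and 3315 in untreated cells at that hour. The accessory subunit Ndufa6 rose, with 2751, 2946, 3914, 3884 and 4916 with butyrate, against 4356, 3662, 3965, 3986 and 4061 with aspirin and 2443 and 3696 in untreated cells (0.23 ± 0.05 log2 units per doubling of time, adjusted p = 0.025). Atp5pd, a stator subunit of the ATP synthase, also rose, with 6141, 7316, 8949.7, 7953 and 9583 with butyrate, against 9307, 9695, 9708, 9926 and 10135 with aspirin and 6816 and 9476 in untreated cells (0.17 ± 0.03 log2 units per doubling of time, adjusted p = 0.0219). Without the butyrate 2 h array no member's slope was called (0 by limma's adjusted p, with 16 at an unadjusted p under 0.05), against 1.32% of all probe sets.

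Ndufa8, a small accessory subunit of the membrane arm, was the only member whose time course was called different between the drugs in either direction (1.06%, against 1.73% of all probe sets, so that the members' share lies below that of all). It read 3734, 4952, 5214, 5108 and 4929 with butyrate, against 7164, 5887, 5285, 3915 and 3235 with aspirin and 3289 and 4413 in untreated cells. Its slope was 0.12 ± 0.06 log2 units per doubling of time with butyrate (adjusted p = 0.245) and -0.31 ± 0.06 with aspirin (adjusted p = 0.0428), a difference of 0.42 ± 0.08 (adjusted p = 0.0448). It was also the only member called as falling over the hours of aspirin (1.06%, against 0.327% of all), and 0 members were called as rising (against 1.32% of all). Below the threshold, 68 of 94 members, Ndufa8 among them, had a negative slope with aspirin, at a median of -0.06. Of all probe sets 41% did, at a median of 0.01. The call of the difference held in 6 of 17 alternatives, and was lost without any 1 of the butyrate arrays or of the aspirin arrays other than that at 12 h.

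Genes that feed the chain are given from lists written from general knowledge, and their counts stand beside the 15.6% of all probe sets called higher and the 9.61% called lower with butyrate than with aspirin, at a median of 0.10. Of 27 tested probe sets for the citric acid cycle and pyruvate entry (16 genes), 6 were higher with butyrate than with aspirin and 0 lower, with a median log2 difference of 0.27. Cs, citrate synthase, the entry step of the cycle, read 1825, 1691, 1719.8, 2022 and 1682 with butyrate, against 726, 709.6, 823, 859 and 549.9 with aspirin and 1661 and 931 in untreated cells (1.30 ± 0.13, adjusted p = 0.00545). The butyrate arrays lay above the aspirin arrays at every hour, and the untreated arrays fell between the drugs. Pc, pyruvate carboxylase, was above aspirin on both probe sets, the brighter at 128, 423, 911, 722 and 457 with butyrate, against -60.1, 26.2, 14.8, 7.1 and -98 with aspirin and 88.8 and -53.5 in untreated cells (2.27 ± 0.42, adjusted p = 0.0167), with all aspirin arrays at the floor, so that its size depends on the floor. Dlst, a subunit of the oxoglutarate dehydrogenase complex, was above aspirin on both probe sets (0.49 ± 0.09, adjusted p = 0.0182 and 0.33 ± 0.07, adjusted p = 0.025). Pdk2, a kinase that turns pyruvate dehydrogenase off, was so on 1 of 2 (1.27 ± 0.22, adjusted p = 0.0147), and its dimmer probe set missed the threshold (1.54 ± 0.47, adjusted p = 0.0585). Against untreated cells butyrate raised 4 of the 27, for Pc, Pdk2 and the pyruvate carrier Mpc1, and lowered 0, where 7.78% of all probe sets were called higher and 3.92% lower.

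Among 28 probe sets for electron feeders, carriers and uncouplers (17 genes), 8 were higher with butyrate than with aspirin and 3 lower, with a median log2 difference of 0.33. The higher ones included Ckmt1, mitochondrial creatine kinase (1.68 ± 0.26, adjusted p = 0.0109), Etfdh, which passes electrons from fatty acid oxidation to ubiquinone (0.94 ± 0.16, adjusted p = 0.0141), and Gpd2, the mitochondrial glycerol phosphate dehydrogenase (0.89 ± 0.17, adjusted p = 0.0188). A brighter probe set of Etfdh (0.43 ± 0.26, adjusted p = 0.259) and a dimmer one of Gpd2 (0.45 ± 0.24, adjusted p = 0.222) missed the threshold. The lower ones were the ADP/ATP exchangers Slc25a5 and Slc25a4 and the phosphate carrier Slc25a3. A count of 3 in 28 is near the 9.61% of all probe sets called lower. All 3 are bright, and in the brightest of 5 equal groups by level 28.1% of all were called lower. The difference of Slc25a4 was small (-0.22 ± 0.06, adjusted p = 0.0485). Slc25a5 read 14366, 12796, 9759, 8224 and 7751 with butyrate, against 19315, 18905, 16494, 18091 and 17828 with aspirin and 18143 and 18232 in untreated cells (-0.82 ± 0.13, adjusted p = 0.0127), and was also below untreated cells (-0.82 ± 0.20, adjusted p = 0.0215). Slc25a3 was below aspirin (-0.31 ± 0.06, adjusted p = 0.0181) and below untreated cells (-0.47 ± 0.11, adjusted p = 0.0212).

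For assembly and mitochondrial gene expression, only 9 of 48 listed genes were tested. Of their 10 probe sets 4 were lower with butyrate than with aspirin and 0 higher, with a median log2 difference of -0.41. They were Mrpl3 and Mrpl23, proteins of the mitochondrial ribosome (-0.77 ± 0.15, adjusted p = 0.0203 and -0.43 ± 0.07, adjusted p = 0.0144), Ssbp1, which binds single-stranded mitochondrial DNA (-0.74 ± 0.11, adjusted p = 0.0103), and the prohibitin Phb2 (-0.63 ± 0.14, adjusted p = 0.024). For regulators of mitochondrial content, 7 of 23 listed genes were tested, without Ppargc1a, Nrf1, Gabpa and Yy1. Of their 10 probe sets 3 were lower and 0 higher, with a median log2 difference of -0.38. The lower ones were both of Myc (-3.62 ± 0.50, adjusted p = 0.00874 on 1 of them) and Prkaa1, a catalytic subunit of AMP-activated kinase (-1.12 ± 0.30, adjusted p = 0.0429). The members and these lists were compared by counts alone, and no test of one against the other was made.

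Over the 12 arrays, the probe sets outside the group whose pattern was most like the members' mean, among 4917 that named 1 gene, were those of Ankrd24 (Pearson r = 0.93), Prdx2 (0.93), Psma2 (0.89), Rpl35 (0.89), Mrpl23 (0.89) and Gpx7 (0.88). Prdx2 is a peroxidase, Psma2 a proteasome subunit and Rpl35 a ribosomal protein, and all points share the same arrays and scaling. All 6 had a lower mean with butyrate than with aspirin, for Prdx2 13.90 against 14.10 log2 units, with 13.99 in untreated cells. Ankrd24 was at the floor on the butyrate arrays.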

How the data were processed

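Total RNA from 12 samples of CC531 cells was measured on expression arrays with 8740 probe sets besides 59 controls. The deposited values are intensity on a linear scale, as read from the values themselves, and 21.6 to 25.6% of them were negative on each array. The authors' software, background step and scaling are not stated in the labels or files. With 2% of values trimmed at each end, every array averaged 1000, so no further scaling was applied.

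Values were raised to a floor of 90.91 (the absolute value of the 10th percentile), then log2 was taken. A filter on mean log2 at its 30th percentile (6.54) removed 2622 probe sets, and the other 6118 went into limma 3.58.1 in R 4.3.3 (lmFit, then eBayes with a variance trend). Each drug was set against untreated cells on all 12 arrays (9 residual degrees of freedom), butyrate against aspirin on 10 arrays with hour as a block (4), and slopes over log2 hours on the same arrays (6). The ± values are standard errors, and p-values were adjusted by Benjamini-Hochberg over all 6118 (threshold 0.05). Precision is limited by the number of arrays. The 8 members not tested were 2 probe sets of Cox6a2, 1 of Cox8b, 3 of Ndufa4l2, 1 of Ndufb11 and 1 of Ndufs4.

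Gene names come from the array's annotation table, and all 102 members matched a RefSeq gene with 0 symbols changed. Members, pathway lists and tests were chosen with earlier results of these data known, and the lists come from general knowledge. Named members were those called in any comparison, those with the largest change or highest level in each complex, and all probe sets of such genes (61 probe sets). Array values are given in the text where a result turns on them and by range or in the heat map otherwise. The hour pairs the drugs by the labels, 1 array of each drug per hour. Alternatives covered the floor, normalization, dim probe set filter, variance trend, block, time scale and each array left out in turn. A pair of them was chosen after seeing the data: leaving out probe sets of several transcripts, and taking the brightest probe set per gene.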

Additional observations from a re-analysis of the deposited data

Results flagged for a closer look

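Among the named members, 5 of 120 groups of 5 arrays had 1 array far from the other 4, where chance alone gives about 1 in 20, or 6. Ndufa8 read 3734.3 at 2 h of butyrate, under the 4929 to 5214 of the later hours. A dim probe set of Ndufs8 read 513.8 at 2 h of butyrate, above the 1.6 to 116.4 of the later hours. Another dim probe set of Ndufs8 read 325.6 at 2 h of aspirin, against -415.7 to 44.2 at the later hours. Uqcrfs1 read 7186.3 at 6 h of aspirin on 1 probe set, above the 6765 to 6860 of the other hours. Cox8b read 141.8 at 12 h of aspirin, above the -13.8 to 62.8 of the other hours. For Cox8b, and for Ndufs8 at 2 h of aspirin, the other 4 arrays were all at the floor of 90.91. Those flags say only that 1 array rose above the floor, and the rate of 1 in 20 does not apply to them.

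The time course of Ndufa8 differed between the drugs by a test of the difference itself, with a slope with butyrate that exceeded the slope with aspirin by 0.4236 log2 units per doubling of time (limma, adjusted p = 0.0448, 5 arrays each). The call was lost without any 1 of the 5 butyrate arrays, the low 2 h array above among them, and without the aspirin array at 2, 6, 16 or 24 h.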

How the results depend on the processing

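For butyrate against aspirin, 35 members were called, 32 of them lower. Quantile normalization gave 22 called and 20 lower, and median centring 58 and 56. No filter on dim probe sets gave 20 and 19, and the brightest probe set per gene 20 and 18. Of all probe sets, 9.69% were called lower under quantile normalization, 24.8% under median centring and 3.22% with no filter, against 9.61% in the main tests. Leaving out 1 array, or both arrays of an hour, gave 4 to 26 called and 3 to 23 lower, fewest without the 16 h arrays. The share of all probe sets called lower was then 0.915 to 10.4%. Without the replicate block there were 35 called and 32 lower, with 8.99% of all probe sets lower. The members' median kept its sign throughout and was -0.55 under median centring, which moved the median of all probe sets to -0.21, from 0.10 as deposited. Relative to all probe sets that is -0.345 in both, since centring moves all alike, and -0.193 under quantile normalization.

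For butyrate against untreated cells (3 called, median -0.10), median centring gave 5 called and a median of -0.28, and quantile normalization a median of -0.0254. Of all probe sets, 13.2% were called under median centring, against 11.7% in the main tests. Using only the arrays of the 2 groups gave 1 called, with 5% of all. With 1 treated array left out the count was 2 to 6, with 5.07 to 19.1% of all. With any 1 array left out the median was -0.27 to 0.0943. For aspirin against untreated cells (1 called, median 0.15), 0 were called by limma with a lower floor, quantile normalization, median centring, no variance trend, only the arrays of the 2 groups, hour as a factor, or the 2 and 24 h arrays alone, with 6 to 14 members at an unadjusted p under 0.05. The median was 0.27 under median centring. With 1 treated array left out the count was 0 to 1, with 0.0163 to 0.147% of all probe sets called. With any 1 array left out the median was -0.0250 to 0.31. With hour as a replicate block on the 2 and 24 h arrays, butyrate had 0 called (3 unadjusted) and aspirin 0 (6 unadjusted, median 0.23), on fewer arrays.

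The butyrate slopes (7 called, 8.99% of all probe sets) gave 0 to 8 with arrays left out, with 1.32 to 8.84% of all. The aspirin slopes (1 called) gave 2 with a lower floor and 6 under median centring (median -0.13). Of all probe sets, 4.38 and 4.22% were then called, against 1.65% in the main tests. The aspirin slopes gave 0 without the filter and 0 without the variance trend (11 unadjusted in each), and 0 to 2 with arrays left out. The slope difference (1 called, 1.73% of all) gave 2 under median centring (1.78% of all). It gave 0 without the filter (15 unadjusted) and 0 without the variance trend (10 unadjusted). With arrays left out it gave 0 to 1, and its median was -0.00929 to 0.0830.

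Of 48 member calls followed, 4 held in every alternative, all for butyrate against aspirin: Ndufa5, Ndufa9, Uqcrfs1 (1 probe set) and Cox4i2. In 44 the call was lost in 1 or more, and 1 turned its sign, Cox6a1 at 0.0416 under quantile normalization. Beyond fewer arrays or another set of probe sets, the cause was not tested. Values near the floor limit Ndufs8 and the dimmer Ndufv3 probe set.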
